A study of Mus musculus with 95 samples.

Results

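The glutathione peroxidase family was followed at the RNA level in the striatum, cortex and liver of zQ175 mice, a knock-in model of Huntington's disease. Its 7 members here are Gpx1, Gpx2, Gpx3, Gpx4, Gpx6, Gpx7 and Gpx8, taken by gene symbol from a table of 39179 genes. The members were taken as a gene family by name and not by a threshold on their values, although earlier results of these data were known when the family was chosen. The study sequenced mRNA from striatum and cortex of the left hemisphere and from liver, of 32 mice aged 6 months.

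Both mouse lines carry a mouse huntingtin gene (Htt) with a long CAG repeat on a C57BL6/J background. The neo-in line (CHDI-81003003, z_Q175 KI) retains the neomycin selection cassette, and the neo-out line (CHDI-81003019, Z_Q175 (neo-) KI) lacks it. Each line contributed 4 male and 4 female heterozygotes (Het), and 4 male and 4 female wild-type mice (WT). In neo-out Het striatum, male replicate 1 was not analysed here, which left n = 7 and 95 libraries in all. Each line had its own WT mice, and allele and cohort cannot be told apart when Het mice of both lines are compared directly. In the Het mice the repeat had 181 to 200 CAG units in the neo-in line and 179 to 208 in the neo-out line. Every tissue is a bulk sample, in which fewer cells of a type and less RNA per cell cannot be told apart.

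Glutathione peroxidases use the tripeptide glutathione, or a related thiol donor, to reduce hydrogen peroxide and lipid hydroperoxides to water and alcohols. The classical members carry selenocysteine, a selenium-containing amino acid written by a TGA codon that otherwise stops translation, while other members carry cysteine at the same place. Gpx6 is also known from a genetic screen in the striatum of Huntington's disease model mice, where raising its expression was reported to delay behavioural decline.

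The stretch of coding sequence around the catalytic residue is shown because it separates the members into selenocysteine and cysteine enzymes. Each line gives 39 bases of the coding strand, 5′ to 3′, from GENCODE transcripts of the GRCm38 (mm10) mouse genome, with the catalytic codon in capitals.
Gpx1: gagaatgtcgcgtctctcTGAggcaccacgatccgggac
Gpx2: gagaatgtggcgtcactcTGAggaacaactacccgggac
Gpx3: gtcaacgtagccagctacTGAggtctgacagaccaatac
Gpx4: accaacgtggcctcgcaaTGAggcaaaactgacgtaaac
Gpx6: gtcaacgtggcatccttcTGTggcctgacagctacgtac
Gpx7: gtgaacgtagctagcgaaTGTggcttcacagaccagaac
Gpx8: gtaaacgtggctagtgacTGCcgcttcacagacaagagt
Gpx1, Gpx2, Gpx3 and Gpx4 hold TGA, and Gpx6, Gpx7 and Gpx8 hold a cysteine codon. The catalytic codon of Gpx1 lies at chr9:108339451-108339453 on the plus strand, that of Gpx2 at chr12:76795256-76795258 on the minus strand, that of Gpx3 at chr11:54907256-54907258 on the plus strand and that of Gpx4 at chr10:80054737-80054739 on the plus strand. That of Gpx6 lies at chr13:21313777-21313779 on the plus strand, that of Gpx7 at chr4:108403430-108403432 on the minus strand and that of Gpx8 at chr13:113045661-113045663 on the minus strand. Gpx1 and Gpx2 were the most alike of all pairs over this window, with 33 of 39 bases identical. Gpx7 and Gpx8 shared 30 bases, and Gpx6 shared 27 with Gpx3. Over longer stretches of transcript, Gpx4 has a pseudogene, Gpx4-ps2, that is 99.7% identical over 762 bases and was not in the table. Gpx4 levels are uncertain to the extent that reads were divided between such copies. The same holds for Gpx2, since Gpx2-ps1, which was in the table, is 98.1% identical to it over 572 bases. For Gpx6 the closest other gene was Gpx5, at 78.0% identity over 491 bases.

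Library depth was 31.02 to 43.99 M (mega) counts in cortex, 33.12 to 68.36 M counts in liver and 31.1 to 43.05 M counts in striatum. Htt, the targeted gene, was lower in Het than in WT mice in all 6 comparisons, by log2 differences of −0.57 to −0.23. The fits were made with edgeR's quasi-likelihood test, and a gene was called at an adjusted p (Benjamini-Hochberg over all genes tested) below 0.05. After the filter on low counts, 17703 genes were tested in striatum, 17444 in cortex and 15208 in liver. Gpx2 passed the filter in no tissue and Gpx6 did not pass it in cortex, so 6, 5 and 6 members were tested. Errors after ± are standard errors (SE) for log2 differences and standard deviations (SD) for levels. Intervals on log2 differences are 1.96 SE to each side, a normal approximation that the test itself does not use. An interval can thus leave out 0 where the unadjusted p is not below 0.05, as for Gpx8 in neo-out striatum and neo-in liver. The p-values measure the spread between these animals.

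Levels of different members were compared in WT mice by FPKM, a level per length of transcript that is also scaled to sequencing depth. In both brain regions Gpx4 stood first and Gpx1 next, and in liver the order of these was the reverse. Gpx4, the enzyme that reduces phospholipid hydroperoxides within membranes and so restrains ferroptosis, was at 198.9 ± 10.5 FPKM in cortex (n = 16), 82.6% of the family's summed FPKM. In striatum it was at 180 ± 15.3 FPKM, 72.6% of the family. Gpx1, the ubiquitous cytosolic enzyme, was at 35.6 ± 3.78 FPKM in cortex and 57.0 ± 5.98 FPKM in striatum, or 14.8% and 23.0% of the family. In liver Gpx1 reached 1115 ± 221 FPKM and made up 85.6% of the family, with Gpx4 at 175.2 ± 16.6 FPKM and 13.9%. In each tissue these 2 members did not overlap with each other or with any other member.

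The remaining members were far lower and lay close together. In striatum Gpx6 came next at 3.98 ± 1.01 FPKM, followed by Gpx3, the secreted plasma enzyme, at 3.10 ± 0.786 FPKM. Gpx8 followed at 2.30 ± 0.514 FPKM and Gpx7 at 1.52 ± 0.188 FPKM, both of them enzymes of the endoplasmic reticulum. These 4 neighbours overlapped in range, although Gpx6 exceeded Gpx3 in 13 of 16 animals and Gpx8 exceeded Gpx7 in 16 of 16. In cortex Gpx3 stood at 2.78 ± 0.617 FPKM, Gpx8 at 1.91 ± 0.645 FPKM and Gpx7 at 1.60 ± 0.219 FPKM, each overlapping its neighbour. In liver Gpx3 was at 2.82 ± 1.26 FPKM, Gpx7 at 1.02 ± 0.327 FPKM, Gpx6 at 0.968 ± 0.594 FPKM and Gpx8 at 0.701 ± 0.324 FPKM. Gpx7 exceeded Gpx6 in only 9 of 16 liver samples, so the order of those neighbours does not hold beyond their spread. Gpx2, known from the lining of the gut, was at 0.0345 FPKM in striatum, 0.0430 FPKM in cortex and 0.125 FPKM in liver, and had 0 to 17 counts in every library.

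**Figure D1:**
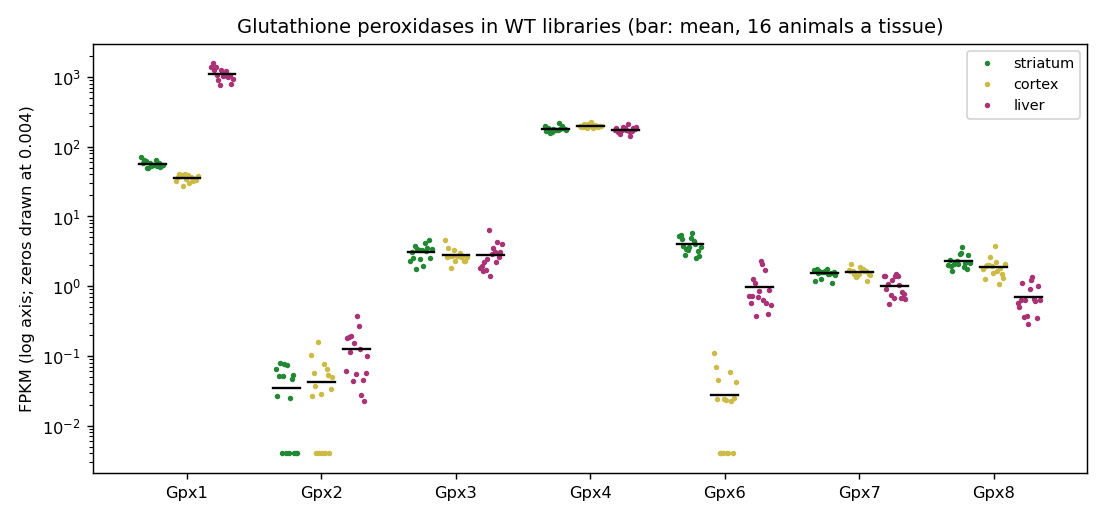
FPKM (log axis) of the 7 family members in each WT animal (n = 16 per tissue), by tissue, with listed zeros drawn at the lower edge. Gpx4 leads in cortex and striatum, Gpx1 leads in liver at 1115 FPKM, and Gpx6 follows both in striatum at 3.98 FPKM. In cortex Gpx6 (0.0278 FPKM) and Gpx2 (0.0430 FPKM) lie near 0 and overlap in range.

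The same WT animals gave both brain regions, so the regions were compared within animals. Of the 6 members tested, Gpx1, Gpx6 and Gpx8 were higher in striatum than in cortex and Gpx4 was lower, where 76.9% of all genes tested were called in this comparison. Gpx6 differed most, from 3.16 to 7.29 CPM (counts-per-million) in striatum against 0 to 0.134 CPM in cortex, with no overlap. The 16 WT cortex libraries held 20 Gpx6 counts in all, and Gpx6 entered this test only through its striatal counts. The fitted log2 difference was 7.01 in edgeR and 4.99 with limma on log2(FPKM + 0.1), so its size depends on how values near 0 are treated and no fold is given. Gpx1 was higher by 0.68 ± 0.04 on the log2 scale and in 16 of 16 animals, and Gpx4 was lower in striatum in 14 of 16 animals (log2 −0.19 ± 0.04, edgeR adjusted p = 0.000252). Gpx8 was higher in striatum by 0.27 ± 0.11 (edgeR adjusted p = 0.0341), a call that was lost without the animal block (adjusted p = 0.0618). Gpx3 and Gpx7 did not pass the test between the brain regions.

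In liver against brain, all 6 members tested were called with the usual TMM scaling, where 93.0% of all genes were called against cortex and 92.6% against striatum. The directions of several members depended on the scaling. The median of all genes moved from −0.15 with TMM to −1.12 with total counts, for liver against either brain region. Gpx1 was higher in liver than in cortex by log2 5.91 with TMM and 4.95 with total counts, and its mean FPKM was 31.3 times that of cortex. Gpx8 was lower in liver than in cortex under each scaling, at −0.50 with TMM and −1.46 with total counts. Against cortex, Gpx6 entered the test only through its liver counts, so its call there carries little weight. It was higher in liver than in cortex under each scaling, by a size that again rests on the few cortical counts (+5.87 with TMM, +4.98 with total counts, +2.92 with limma on log2(FPKM + 0.1)). It was lower in liver than in striatum under each scaling (−1.15 with TMM, −2.11 with total counts), with lower FPKM in 16 of 16 animals. Gpx3, Gpx4 and Gpx7 were higher in liver than in cortex with TMM, at +0.92, +0.80 and +0.28, but lower with total counts, at −0.05, −0.16 and −0.67, so no direction is given for them.

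The Het and WT mice were compared next, to ask which members differ with the knock-in allele. In striatum Gpx6 fell in both lines, and no other member passed the test in either line. In neo-in WT striatum Gpx6 ranged from 3.56 to 6.91 CPM with a median of 4.67 (n = 8), and in neo-in Het striatum from 0.778 to 1.86 CPM with a median of 1.34 (n = 8). In neo-out WT striatum it ranged from 3.16 to 7.29 CPM with a median of 4.83 (n = 8), and in neo-out Het striatum from 0.400 to 0.980 CPM with a median of 0.549 (n = 7). All 15 Het libraries lay below all 16 WT libraries, and the share of all genes that separated in this way was not computed. The counts behind these values were 131 to 277 and 26 to 65 in the neo-in line, and 108 to 279 and 14 to 37 in the neo-out line.

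The log2 difference of Gpx6 was −2.03 ± 0.13 in the neo-in line (edgeR adjusted p = 1.337e-12, fold 0.246) and −2.99 ± 0.16 in the neo-out line (edgeR adjusted p = 1.999e-14, fold 0.126). Among all genes tested in striatum, 19.7% were called in the neo-in line and 18.2% in the neo-out line, beside 1 of 6 members in each, and genes called lower made up 10.8% and 9.30%. The median of the members' log2 differences was 0.08 and −0.01, beside a median of 0.01 over all genes in both lines. Leaving out any single library kept the Gpx6 difference between −2.09 and −1.99 in the neo-in line and between −3.12 and −2.91 in the neo-out line. With limma on log2(FPKM + 1), where the added 1 weighs on a gene at this level, the differences were −1.29 and −1.69, both called.

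**Figure D2:**
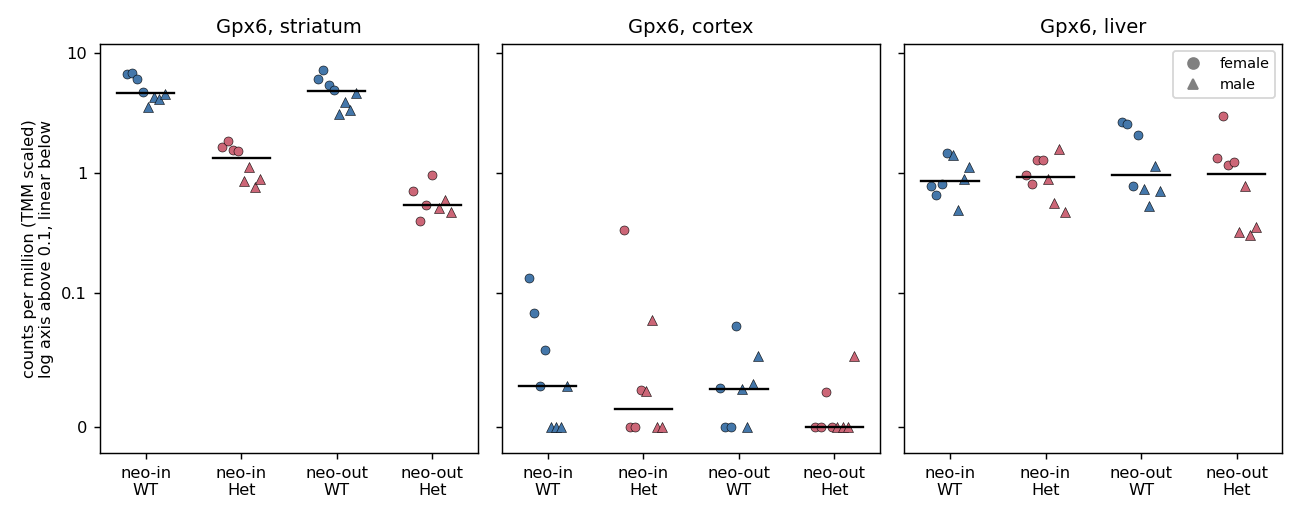
Gpx6 CPM in each library of striatum, cortex and liver by line, genotype and sex, on an axis that is linear near 0 and logarithmic above it, with bars at the medians. In striatum the Het libraries (0.400 to 1.86 CPM) lie below every WT library (3.16 to 7.29 CPM), in cortex all lie at or near 0, and in liver the genotypes overlap.

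The other 5 members tested in striatum overlapped between Het and WT in both lines. The share of all genes that overlapped in this way was not computed. Gpx1 had medians of 61.2 CPM in neo-in WT and 64.7 CPM in neo-in Het, and of 58.1 and 58.7 CPM in neo-out. Its log2 difference was 0.03 with an interval of −0.11 to 0.16 in neo-in, and 0.02 with an interval of −0.12 to 0.16 in neo-out. Gpx1 was thus bounded to small changes in both directions. Gpx4 had medians of 147.2 and 157.2 CPM in neo-in WT and Het, and of 148.0 and 151.0 CPM in neo-out. Its intervals were −0.03 to 0.22 and −0.18 to 0.08. For Gpx3 the intervals were wider, at −0.34 to 0.48 and −0.33 to 0.47, around a difference of 0.07 in each line.

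Gpx7 and Gpx8, the members of the endoplasmic reticulum, came nearest to the threshold after Gpx6. Gpx7 in neo-in striatum ranged from 1.56 to 2.24 CPM with a median of 2.08 in WT, and from 1.98 to 2.86 CPM with a median of 2.36 in Het. The ranges overlapped, and the log2 difference was 0.25 with an interval of 0.03 to 0.47 (edgeR adjusted p = 0.127). Limma on log2(FPKM + 0.1) called Gpx7 there (+0.30, limma adjusted p = 0.0334). In neo-out striatum the Gpx7 difference was 0.07, with an interval of −0.17 to 0.31. Gpx8 in neo-out striatum ranged from 1.799 to 3.68 CPM with a median of 2.51 in WT, and from 1.72 to 3.29 CPM with a median of 1.90 in Het. Its difference was −0.28 with an interval of −0.56 to −0.01, and its unadjusted p was not below 0.05 (edgeR adjusted p = 0.167). Gpx8 was called once either Het female replicate 3 or WT female replicate 4 of that line was left out. In neo-in striatum the Gpx8 difference was 0.09, with an interval of −0.17 to 0.36.

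**Figure D3:**
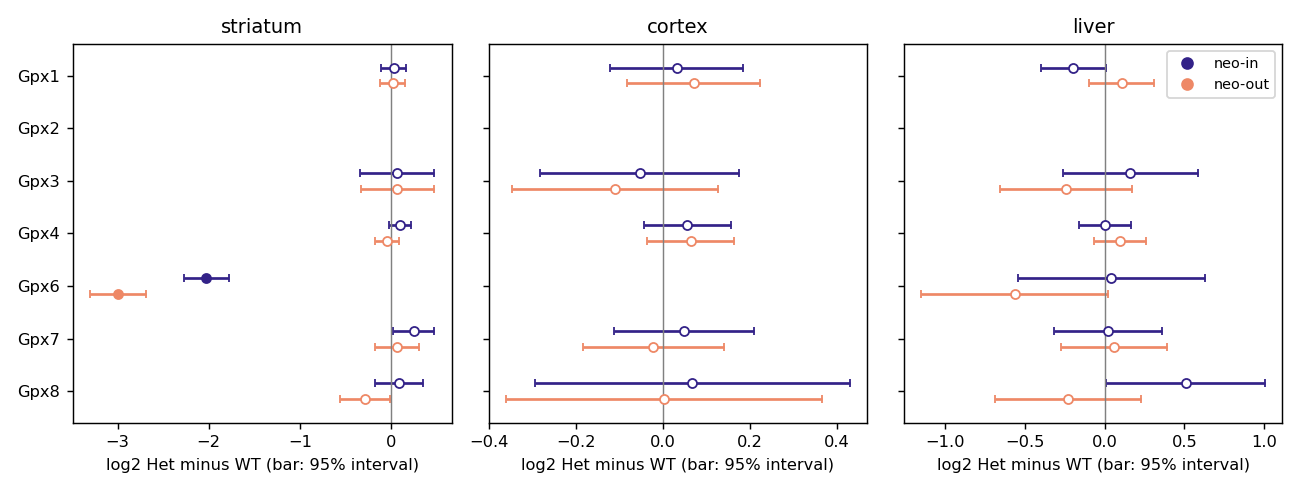
Het minus WT log2 difference of each tested member in each tissue and line, with lines spanning 1.96 SE to each side and filled points for adjusted p below 0.05; the horizontal axes differ between panels. Gpx6 in striatum, at −2.03 and −2.99, holds the only filled points.

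The striatal level of Gpx6 was also compared between the lines. Het mice of the neo-out line had less Gpx6 than Het mice of the neo-in line, by −1.05 ± 0.21 (edgeR adjusted p = 0.0222, 0.362% of all genes called), and the WT mice of the lines did not pass the test (−0.08, interval −0.27 to 0.11, 0.491% of all genes called). Gpx6 was the 1 member of 6 called between the Het groups. The call was lost without any 1 of 4 male libraries, neo-out Het male replicates 3 and 4 and neo-in Het male replicates 2 and 4 (adjusted p = 0.0665, 0.0711, 0.0657 and 0.0548). The difference between the lines in the Het effect itself was −0.97, with an interval of −1.42 to −0.52 and an unadjusted p of 0.000211, and did not pass after adjustment in edgeR (adjusted p = 0.487). Only 1 of 17703 genes, or 0.00565%, was called in that comparison and 816 had an unadjusted p below 0.05. No member was called by edgeR there, Gpx6 being the 1 member below 0.05 unadjusted, whereas DESeq2 called Gpx6 (−0.98, DESeq2 adjusted p = 0.0201).

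Gpx6 was higher in females than in males in striatum, by 0.59 ± 0.12 on the log2 scale averaged over the 4 line and genotype groups (edgeR adjusted p = 0.0126). It was the 1 member of 6 called, beside 0.378% of all genes. In neo-in WT mice females ranged from 4.73 to 6.91 CPM and males from 3.56 to 4.61 CPM, and in neo-in Het mice from 1.55 to 1.86 and from 0.778 to 1.12 CPM. In neo-out WT mice females ranged from 5.01 to 7.29 CPM and males from 3.16 to 4.64 CPM. The sexes did not overlap in these 3 groups, whereas in neo-out Het mice females (0.400 to 0.980 CPM) overlapped with males (0.477 to 0.603 CPM). How many of all genes separate the sexes in this way was not computed. Whether the Het effect differed by sex did not pass the test in either line: the female effect minus the male effect on Gpx6 was 0.28 (interval −0.25 to 0.82) in neo-in and −0.33 (interval −1.09 to 0.42) in neo-out. In each of those comparisons edgeR called 0.00565% of all genes and none of the members, and DESeq2 also called none. Gpx1 in neo-in was the 1 member with an unadjusted p below 0.05 there (−0.36 ± 0.14).

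Most markers of medium spiny neurons, the main neurons of the striatum, moved with Gpx6. Of 18 such markers, 17 fell in each line, by −0.35 (Foxp1) to −1.18 (Scn4b) in neo-in and by −0.26 to −1.27 in neo-out. The exception, Tac1, was called in neither line alone and was called higher over both lines together. The median of all 18 was −0.69 in each line. The summed level of all 18 ranged from 12020 to 14810 CPM in neo-in WT and from 7189 to 8431 CPM in neo-in Het. In neo-out it ranged from 11270 to 14510 CPM in WT and from 6453 to 8746 CPM in Het. No marker of this list was at 0 in the striatum. Set against that sum, Gpx6 had a median of 0.361 CPM per 1000 CPM of the markers in neo-in WT and 0.175 in neo-in Het, with ranges of 0.257 to 0.524 and 0.0988 to 0.221. In neo-out the medians were 0.397 and 0.0771, with ranges of 0.280 to 0.542 and 0.0586 to 0.134. Relative to these markers Gpx6 therefore remained lower in Het than in WT striatum without overlap in either line.

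**Figure D4:**
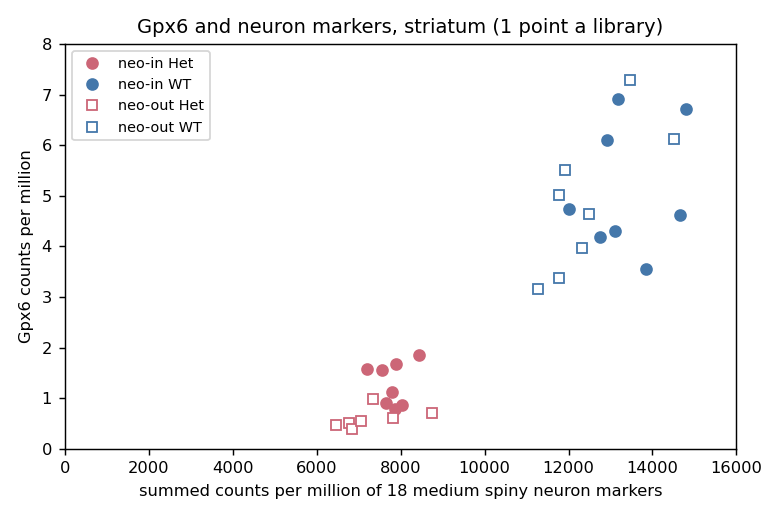
Gpx6 CPM against the summed CPM of 18 medium spiny neuron markers in each striatum library, by line and genotype. Het libraries hold less of both: their marker sums lie between 6453 and 8746 CPM and their Gpx6 is at most 1.86 CPM, while WT marker sums lie between 11270 and 14810 CPM.

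Markers of other cell types were lower in part. Endothelial and mural markers fell for 6 of 12 genes in neo-in and 4 of 12 in neo-out, and their sum ranged from 544.9 to 732.9 CPM in neo-in WT and from 481.4 to 525 CPM in neo-in Het. In neo-out it ranged from 532.9 to 589.5 CPM in WT and from 477.1 to 546.5 CPM in Het. Of 10 astrocyte markers 1 rose and 2 fell in neo-in and 1 rose and 4 fell in neo-out, with sums of 4652 to 5086 CPM in neo-in WT, 3740 to 4479 CPM in neo-in Het, 4206 to 5059 CPM in neo-out WT and 3876 to 4221 CPM in neo-out Het. Of 10 oligodendrocyte markers 2 rose and 4 fell in neo-in and none rose and 5 fell in neo-out, with sums of 8660 to 11970, 8470 to 10250, 9530 to 11150 and 7844 to 9491 CPM in the same order. The summed levels thus did not overlap between WT and Het for endothelial and astrocyte markers in neo-in and for oligodendrocyte markers in neo-out. Choroid plexus markers summed to 305.7 to 362.7 CPM in neo-in WT and 314.2 to 495.4 CPM in neo-in Het, and to 316.4 to 2527 CPM in neo-out WT and 294.6 to 360 CPM in neo-out Het. The part of these markers in the Gpx6 result was not tested. Without the 12 striatum libraries in which the choroid plexus gene Ttr or the cortical gene Slc17a7 was high, Gpx6 was lower by −2.09 in neo-in Het (edgeR adjusted p = 4.978e-07). All 4 neo-out WT females were among those libraries, so that the comparison of that line was made between its 2 remaining WT males and 2 remaining Het males, between which Gpx6 differed by −2.81 (edgeR adjusted p = 0.0001772 in a fit that shares its spread with the other groups). The difference between the Het mice of the lines was −0.91 without those libraries and was not called (edgeR adjusted p = 0.205).

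Across the 31 striatum libraries, the 5 genes whose log2 CPM followed Gpx6 most closely among 14580 genes were Ptpn7, Hrk, Hipk4, Dusp18 and Penk. Pearson's r over all libraries ran from 0.951 for Penk to 0.959 for Ptpn7, as a description of libraries that share the difference between Het and WT. Once the mean of each line, genotype and sex was taken out, r was 0.52 for Ptpn7, 0.35 for Hrk, 0.294 for Hipk4, 0.217 for Dusp18 and 0.393 for Penk. Penk encodes proenkephalin, the opioid peptide precursor of indirect pathway neurons, and Hrk a BH3-only protein that promotes cell death. All 5 fell less than Gpx6: their log2 differences lay between −1.19 (Ptpn7) and −0.56 (Dusp18) in neo-in, and between −1.43 and −0.67 in neo-out.

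Gpx6 lies at chr13:21312125-21319624 on the plus strand (mm10). Of 59 annotated genes within 500 kb, 46 were in the table and 16 were tested in striatum. In neo-in 2 of the 16 were lower, Aoah, an enzyme that detoxifies bacterial lipopolysaccharide, 275.5 kb away (−0.87 ± 0.28, edgeR adjusted p = 0.0283) and Zscan26 122.6 kb away (−0.13 ± 0.04, edgeR adjusted p = 0.0357). These 2 of 16 stood beside 10.8% of all genes called lower. In neo-out Aoah alone was lower (−1.11 ± 0.28, edgeR adjusted p = 0.00562). That 1 of 16 stood beside 9.30% of all genes called lower, so neither count was far from its background. Over the 16 neighbours the median difference was 0.06 for the neo-in line and 0.03 for the neo-out line.

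Within neo-out Het striatum, where the repeat ranged from 193 to 208 CAG units, Gpx6 and repeat number had Pearson's r of 0.401 (exact permutation p = 0.385, n = 7) and Spearman's rho of 0.259 (exact permutation p = 0.598, n = 7). Both p-values were the same after adjustment over striatum and cortex. Without the 2 animals farthest from the median repeat number, r was 0.846. At this number of animals no relation could be shown. The same relation in cortex is not given, because the 8 neo-out Het cortex libraries held 3 Gpx6 counts in all.

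In cortex Gpx6 was almost absent from the reads, and the genotypes could not be compared. Of 32 cortex libraries 16 had 0 counts, 8 had 1, 3 had 2, 3 had 3, 1 had 5 and 1 had 12. The library with 12 counts was neo-in Het female replicate 1, whose medium spiny neuron markers summed to 1084 CPM, within the 1056 to 1210 CPM of its group. Cortex sums of those markers ranged from 1056 to 1851 CPM in all. In edgeR's test of the striatal effect minus the cortical effect, Gpx6 was not called in either line (log2 −2.93 in neo-in and −1.95 in neo-out). It was the 1 member with an unadjusted p below 0.05 in neo-in. With so few cortical counts, these values cannot decide whether the Het effect on Gpx6 differed between the regions. For the other 5 members, none passed edgeR's test of the striatal effect minus the cortical effect and none had an unadjusted p below 0.05, with differences from −0.02 (Gpx1) to 0.20 (Gpx7) in neo-in and from −0.28 (Gpx8) to 0.12 (Gpx3) in neo-out. In those comparisons 5.53% and 4.35% of all genes were called.

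None of the other 5 members passed the test in cortex in either line. None had an unadjusted p below 0.05 and DESeq2 called none, beside 1.71% of all genes called in neo-in and 2.83% in neo-out. Gpx4 was the most tightly bounded, with a median of 174 CPM in neo-in WT and 182.1 CPM in neo-in Het, and intervals of −0.04 to 0.16 in neo-in and −0.04 to 0.16 in neo-out. Gpx1 differed by 0.03 and 0.07, Gpx3 by −0.05 and −0.11, and Gpx7 by 0.05 and −0.02. Gpx8 had the widest intervals, −0.30 to 0.43 and −0.36 to 0.37. Between the sexes 0.269% of all genes were called in cortex and none of the members, by edgeR or DESeq2. Gpx7 alone had an unadjusted p below 0.05, being 0.19 ± 0.06 higher in females (edgeR adjusted p = 0.211), with 1.73 to 2.69 CPM in females and 1.56 to 2.43 CPM in males.

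In liver no member passed the Het against WT test in either line, and all groups overlapped. edgeR called 0.585% of all genes in neo-in and 0.513% in neo-out, no member had an unadjusted p below 0.05 and DESeq2 called none. These shares, 89 and 78 genes, were unstable. With single libraries left out, the genes called ranged from 7 to 311 in neo-in and from 34 to 134 in neo-out. Gpx1, the main peroxidase RNA of this tissue, ranged from 831.9 to 1521 CPM with a median of 1232 in neo-in WT, and from 844.1 to 1363 CPM with a median of 1051 in neo-in Het. Its difference was −0.20 (interval −0.40 to 0.01) in neo-in and 0.11 (interval −0.10 to 0.31) in neo-out. Gpx6 had medians of 0.860 and 0.940 CPM in neo-in WT and Het, and of 0.972 and 0.984 CPM in neo-out, on 11 to 123 counts a library. Its intervals, −0.54 to 0.63 and −1.15 to 0.02, hold neither of the striatal differences. Gpx8 differed by 0.51 (interval 0.01 to 1.01, edgeR adjusted p = 0.365) in neo-in and by −0.23 (interval −0.69 to 0.23) in neo-out. The WT livers of the lines differed for 9.53% of all genes but for no member by edgeR or DESeq2, with Gpx3 (+0.46, edgeR adjusted p = 0.179) and Gpx8 (+0.66, edgeR adjusted p = 0.0897) below an unadjusted p of 0.05. Without neo-in WT male replicate 3, which had the highest Gpx3 level of all livers, Gpx3 was called between the WT livers (+0.78, edgeR adjusted p = 0.00183). Gpx8 was called without neo-in WT female replicate 4 or neo-in WT male replicate 2 (edgeR adjusted p as low as 0.0390). A score of circadian clock genes in the same livers was −3.89 to −1.51 in neo-out WT, below the −0.15 to 2.63 of neo-in WT, the −0.84 to 2.51 of neo-in Het and, but for an overlap, the −2.03 to 1.69 of neo-out Het. With all libraries, no member was called by edgeR between the WT livers or between Het and WT in either line, with or without that score as covariate. The score did not overlap between the WT groups of the lines, so this fit cannot tell score and line apart.

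The sexes differed in liver. Females had more Gpx1, Gpx6 and Gpx7 RNA than males and less Gpx4, so that 4 of 6 members were called, in a comparison that called 49.7% of all genes. Gpx6 ranged from 0.660 to 3.02 CPM with a median of 1.27 in 16 females and from 0.305 to 1.60 CPM with a median of 0.728 in 16 males, a difference of 0.86 ± 0.21 (edgeR adjusted p = 0.00124). Gpx7 had medians of 1.52 CPM in females and 1.03 CPM in males (0.48 ± 0.12, edgeR adjusted p = 0.00173). Gpx4 had medians of 142 CPM in females and 171 CPM in males (−0.27 ± 0.06, edgeR adjusted p = 0.000396). The ranges of the sexes overlapped for every member.

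Gpx1 had medians of 1177 CPM in females and 1080 CPM in males. Its difference of 0.18 ± 0.07 passed narrowly (edgeR adjusted p = 0.0400), and it lost the call without any 1 of 13 single libraries, with an adjusted p of up to 0.0703. It also lost the call with a liver clock gene score as covariate (edgeR adjusted p = 0.0546). Gpx3 (−0.32 ± 0.15, edgeR adjusted p = 0.0779) and Gpx8 (0.30 ± 0.17, edgeR adjusted p = 0.155) did not pass. Gpx3 was called without neo-in WT male replicate 1 or 4 (edgeR adjusted p as low as 0.0284), and Gpx8 was called by limma on log2(FPKM + 0.1) and on log2(FPKM + 1) (limma adjusted p as low as 0.0194). Gpx6 was thus higher in females in both tissues where it could be tested.

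**Figure D5:**
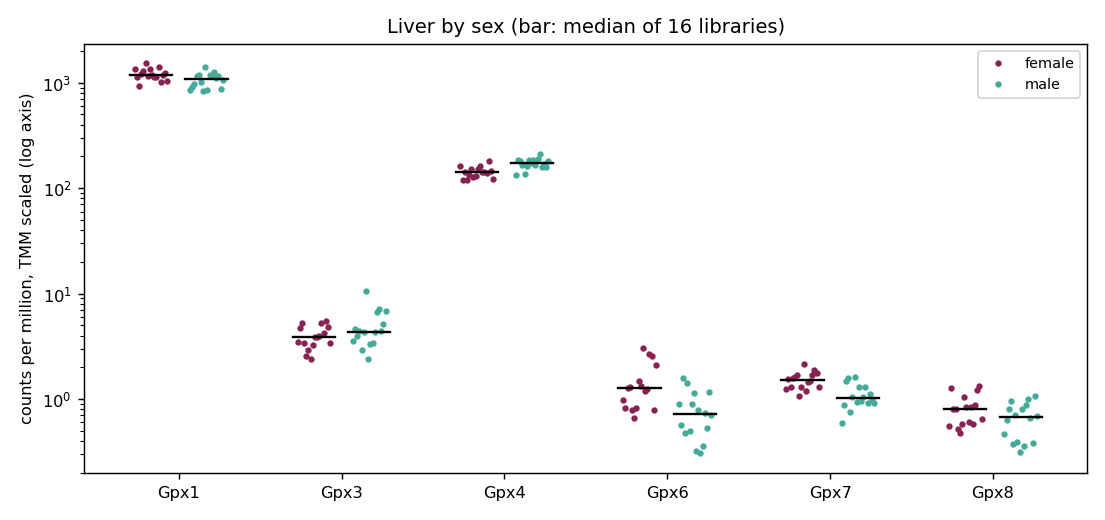
CPM (log axis) of the 6 tested members in each liver library of 16 females and 16 males, with bars at the medians. The Gpx6 medians are 1.27 CPM in females and 0.728 CPM in males, the Gpx4 medians 142 and 171 CPM, and the sexes overlap for every member.

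The enzymes around the family in striatum were described from lists of genes of the same pathways. Each count is to be read against all genes of striatum, of which 8.99% were called higher and 10.8% lower in neo-in, and 8.86% higher and 9.30% lower in neo-out. Beside Gpx6 their differences were small, and the median of each list lay within 0.07 of 0 on the log2 scale in each line. Among 23 tested genes that make or recycle glutathione, 2 rose and 2 fell in neo-in, with a list median of −0.03, and 2 rose and 1 fell in neo-out, with a list median of −0.01, beside 0.01 for all genes. These shares are near that background. Glrx, glutaredoxin, which removes glutathione from protein thiols, rose by 0.32 ± 0.06 in neo-in (edgeR adjusted p = 0.0001645) and by 0.20 ± 0.06 in neo-out (edgeR adjusted p = 0.0196). It was also the 1 gene of 23 on that list called in cortex, higher by 0.19 ± 0.04 in neo-in (edgeR adjusted p = 0.00844) and 0.14 ± 0.04 in neo-out (edgeR adjusted p = 0.0435). Of the enzymes that supply NADPH to glutathione reductase, Pgd rose in neo-out striatum (0.17 ± 0.05, edgeR adjusted p = 0.0325) and G6pdx fell (−0.12 ± 0.04, edgeR adjusted p = 0.0188).

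Among 15 tested genes for making selenoproteins and supplying selenium, edgeR and DESeq2 called none in neo-in, where 4 had an unadjusted p below 0.05. In neo-out 1 fell, Lrp8, a receptor that takes up selenoprotein P (−0.14 ± 0.05, edgeR adjusted p = 0.0469), which is named here after its value was seen. Among 17 other selenoproteins 4 rose and 2 fell in neo-in, and 2 rose and 1 fell in neo-out. Dio2, the deiodinase that activates thyroid hormone, fell in both lines (−0.30 ± 0.07 and −0.36 ± 0.07). Selenoo rose by 0.10 ± 0.04 in neo-in and 0.17 ± 0.04 in neo-out.

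Of 20 other peroxide and superoxide enzymes tested, 6 rose and 1 fell in neo-in, beside 8.99% of all genes called higher and 10.8% lower. In neo-out 3 rose and 3 fell, beside 8.86% of all genes called higher and 9.30% lower. Ptgs1, with the smallest p of this list over both lines, rose by 0.20 ± 0.05 in neo-in and 0.27 ± 0.05 in neo-out. Prdx2, a cytosolic peroxiredoxin, rose by 0.21 ± 0.04 in neo-in and 0.13 ± 0.04 in neo-out. Sod2, the mitochondrial superoxide dismutase, rose by 0.10 ± 0.03 and 0.18 ± 0.03. Of 18 genes of ferroptosis and lipid peroxide handling, 1 rose and 1 fell in neo-in and 2 rose and 3 fell in neo-out. Fth1, the ferritin heavy chain that stores iron, fell in both lines (−0.23 ± 0.05 and −0.25 ± 0.06), and Cyb5r1 rose in both (0.16 ± 0.05 and 0.24 ± 0.05). Of 14 genes of oxidative protein folding in the endoplasmic reticulum, where Gpx7 and Gpx8 act, 2 rose and none fell in neo-in, Prdx4 (0.21 ± 0.06) and Qsox1 (0.19 ± 0.05), and 1 rose in neo-out, Hspa5 (0.26 ± 0.08), which is named here after its value was seen.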

How the data were processed

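The deposited table held, for each library, expected counts per gene (32.2% of values above 1 were not whole) and FPKM values made by the authors, and a deposited metadata sheet held the alignment count of each library and, for each animal, its CAG repeat length. Reads were processed with CASAVA 1.8.2 and the mm10 genome, per the submitters' processing notes; the aligner, counting tool, annotation and strand setting were not given in the sources used here. Expected counts were rounded, and CPM were computed from them. Each tissue was fitted with edgeR 4.0.16 (R 4.3.3; TMM, filterByExpr, quasi-likelihood test) with 1 coefficient for each line, genotype and sex, and p-values were adjusted by Benjamini-Hochberg over all genes tested. WT tissue comparisons used the animal as a block, since the same animals gave each tissue. limma 3.58.1 on log2 FPKM and DESeq2 1.42.0 were alternatives, and the scripts were tested on simulated data. None of the 141 pairs of libraries within a group was a duplicate, and pairs across groups were not checked. The members, gene lists and tests were chosen with earlier results of these data known. All members are named, together with up to 3 genes of each pathway list with the smallest p, the 5 genes most like Gpx6, its neighbours and Htt.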

Additional observations from a re-analysis of the deposited data

Results flagged for a closer look

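In 5 of 68 groups of 7 or 8 libraries, 1 library stood apart from the others of its group by Dixon's criterion, which chance alone meets in about 1 group in 20. In liver, Gpx3 was at 10.55 CPM in neo-in WT male replicate 3, where the next library was at 4.297 CPM. Gpx6 was at 3.017 CPM in neo-out Het female replicate 2 of liver (next 1.339 CPM), and Gpx7 at 2.148 CPM in neo-out Het female replicate 1 of liver (next 1.488 CPM). Gpx8 was at 3.896 CPM in neo-out WT female replicate 1 of cortex (next 2.243 CPM) and at 3.292 CPM in neo-out Het female replicate 3 of striatum (next 2.359 CPM). In each case the library that stood apart was the highest of its group. Some of these libraries were also the highest of their group in marker sums. The cortex library with high Gpx8 held 2716 CPM of choroid plexus markers (group median 285.4). The striatum library with high Gpx8 held 187.2 CPM of meningeal and fibroblast markers (group median 124.7). The liver library with high Gpx3 held 232.3 CPM of cholangiocyte markers (group median 69.6). The part of these markers in the values was not tested.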

How the results depend on the processing

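Of 1539 results recomputed under 107 alternatives in all, 1451 kept their direction and their side of the threshold, or stayed within 1.5 times for a count, and 11 changed direction. All 11 were liver against brain differences. Total counts and limma on log2(FPKM + 0.1), both chosen after seeing the data, gave −0.047 and −0.058 for Gpx3, −0.16 and −0.19 for Gpx4 and −0.67 and −0.65 for Gpx7 against cortex. Against striatum they gave −0.19 and −0.19 for Gpx3 and −0.59 and −0.59 for Gpx7, and limma gave −0.04 for Gpx4, which total counts put at 0.03. The scaling itself moved the median of all genes, as given above.

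The number of members called in neo-in striatum was 2 in place of 1 with limma on log2(FPKM + 0.1) and on log2(FPKM + 1), through Gpx7. With single libraries left out it ranged from 1 to 2 in neo-out striatum, from 0 to 1 between the Het striata of the lines and from 0 to 1 between the WT livers of the lines. It was 0 between the Het striata without libraries high in Ttr or Slc17a7, and DESeq2 called 1 member for the difference in Het effect between the lines. The cause of these changes was not tested.

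Mice of different groups shared replicate numbers. Same-numbered Het and WT libraries were compared by the r of their deviations from group means. Its median was 0.068 in striatum (−0.389 to 0.363, 15 pairs), −0.003 in cortex (−0.373 to 0.183, 16 pairs) and 0.054 in liver (−0.18 to 0.368, 16 pairs). Differently numbered libraries were not compared, and the numbers were not taken as a pairing. With the replicate block Gpx6 differed by −2.03 in neo-in and −3.03 in neo-out striatum, and the block changed no call of a member between Het and WT. Low counts limit Gpx6 in cortex and Gpx2 in every tissue.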
